A study of Mus musculus with 24 samples.

Results

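The 100 genes described here were highest in the middle of a 4-day course in which wild-type (WT) mouse embryonic stem cells were driven towards extraembryonic endoderm (XEN), the lineage that lines the yolk sac. They were chosen from the WT libraries of days 1 to 4 alone. Each count was divided by its library's total and multiplied by 1000000 (CPM), the 2 libraries of a day were averaged, and genes were kept whose day 2 or day 3 mean was at least 5 CPM. The score was the higher of the day 2 and day 3 means divided by the higher of the day 1 and day 4 means, with 0.5 CPM added to both. The members are the 100 highest scores among 11436 named genes past that minimum, of 30590 genes listed. Their scores ran from 2.59 to 19.5 with a median of 3.18. The last members inside were Popdc3, Inpp4b, Fam124a, Thbs4 and Stox1, with scores from 2.62 down to 2.59, and the first outside were Avpi1, Ppp4r4, Tdpoz4, Gulo and Flt4, with scores from 2.57 down to 2.54.

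The cells are E14 mouse embryonic stem cells (mESCs) of the 129/Ola background, either WT or AGO2 knockout (KO), whose allele the labels do not describe. AGO2 is the Argonaute protein that carries microRNAs and can cut their targets. All course cells, WT and KO alike, had left serum and LIF for RPMI with 15% serum, 10 ng/mL Activin A and all-trans retinoic acid at 0.1 µM. That protocol is described as lasting 5 days. The WT and KO groups of days 1, 2, 3 and 4 hold 2 libraries each. The endpoint groups hold 2 libraries each of WT mESC, of WT cells labelled diff_XEN and of KO cells labelled diff_XEN, all marked as re-used from earlier series. The mESC libraries are of passages 33 and 42, from cells in 15% serum, and the columns of the KO diff_XEN libraries are named C4 and 5-3. For the diff_XEN cells, WT and KO alike, the labels give the same serum, Activin A, retinoic acid and 5 days as for the course. Whether replicates are separate cultures is not stated, and the spread behind each p-value may be technical.

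Several kinds of gene that switch on for a short time are known in such cells. A small share of mouse embryonic stem cells passes through a 2-cell-like state, named for the cleavage stage embryo it resembles, in which Zscan4 and other cleavage-stage genes are transcribed. Retinoic acid activates the 3′ end of the HOX clusters within hours to days and is used to pattern the hindbrain. Interferon-type genes make the immunoproteasome and the machinery that loads peptides onto MHC class I molecules, and are held low in embryonic stem cells.

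Total counts ranged from 10601574 to 27147835 per course library and from 13941826 to 40139219 per endpoint library. Ago2, the targeted gene, had 195 to 573 CPM in the 8 WT course libraries and 31.1 to 141.0 CPM in the 8 KO course libraries, without overlap. It had 394 and 405 CPM in WT diff_XEN against 120 CPM in KO library C4 and 9.67 CPM in KO library 5-3. The 20 markers listed for primitive endoderm and XEN cells were all detected in every course library, and their summed level went from 996 and 1094 CPM on WT day 1 to 13986 and 15203 CPM on WT day 4, and from 570.0 and 709 CPM to 6524 and 8507 CPM in KO. In such bulk libraries fewer cells of a type and less RNA per cell cannot be told apart. The 2 WT day 3 libraries stood apart from each other: 8.55% of 14777 genes differed by more than 2-fold between them, against 0.501% to 4.39% between the replicates of the other 7 groups. WT day 3 replicate 2 had 3754 CPM summed over 18 stress and unfolded protein genes, against 2182 to 2948 CPM in the other 15 course libraries.

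In WT, 72 members had the higher mean on day 2 and 28 on day 3. Since these values chose the members, they are given without a test. In 97 members both libraries of the higher day exceeded all 4 libraries of days 1 and 4, and in 50 all 4 libraries of days 2 and 3 did. The highest WT library was day 2 replicate 2 for 69 members, day 3 replicate 2 for 23, day 2 replicate 1 for 4 and day 3 replicate 1 for 4. With each member set to 100% in its highest course library, the median member stood at 8.41% and 12.1% in the WT day 1 libraries, 61.7% and 100% on day 2, 46.0% and 38.1% on day 3 and 20.2% and 20.6% on day 4. In the KO libraries the medians were 12.7% and 13.0% on day 1, 40.9% and 47.0% on day 2, 36.9% and 27.97% on day 3 and 16.6% and 18.6% on day 4. Both KO medians were above both WT medians on day 1 and below both on days 2, 3 and 4. The choice of members favoured high WT values on days 2 and 3.

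**Figure D1:**
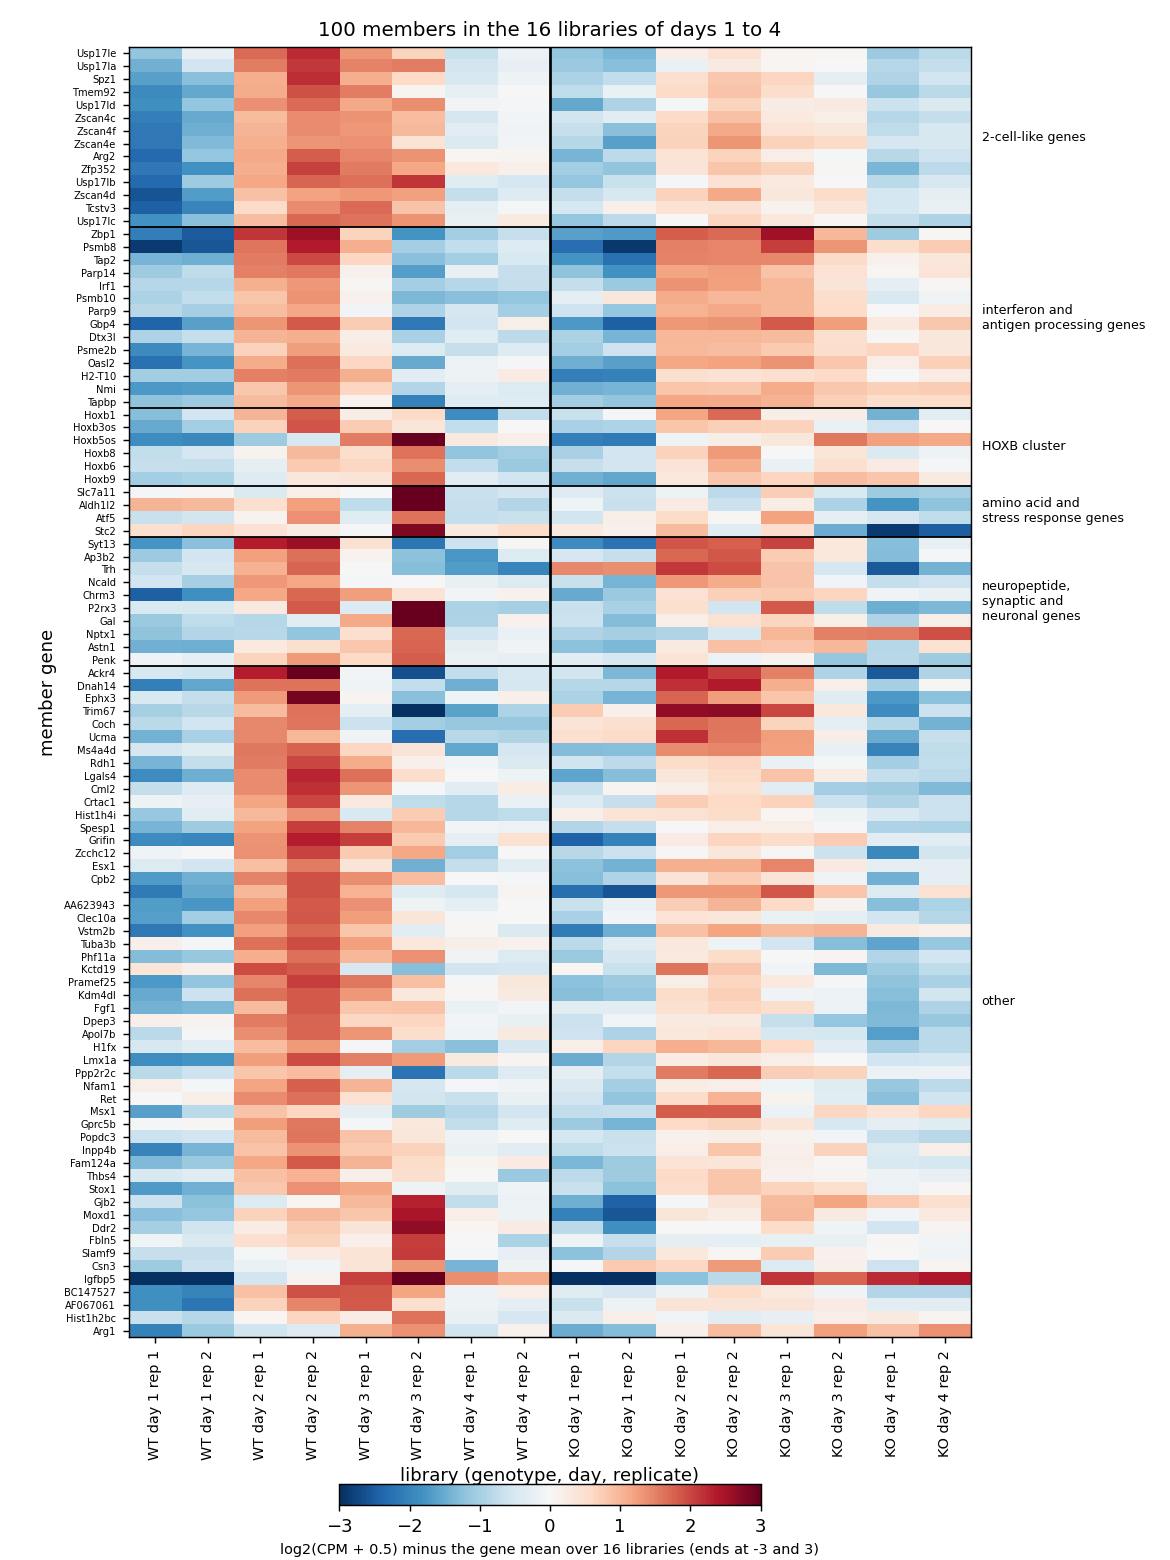
Each row is one of the 100 members and each column one of the 16 course libraries, with colour showing log2(CPM + 0.5) minus the gene's mean over the 16 libraries. Most rows are red in both WT day 2 columns and paler red in both KO day 2 columns, while the rows with the higher WT mean on day 3 are reddest in the single column of WT day 3 replicate 2.

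The 28 members with the higher mean on day 3 leaned on that one library. Of these, 23 were highest in WT day 3 replicate 2, and 18 were more than 2-fold higher there than in replicate 1. When the choice was repeated without WT day 3 replicate 2, 11 of the 28 remained among the 100 genes chosen, as did 72 of the 72 members with the higher mean on day 2. The 72 went the other way: 33 of them were more than 2-fold lower in WT day 3 replicate 2 than in replicate 1. Slc7a11, which has the highest score of all, is the clearest example of the first kind. Ackr4, with the highest score of the day 2 members, was at 16.1 CPM in WT day 3 replicate 1 and 2.30 CPM in replicate 2.

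**Figure D2:**
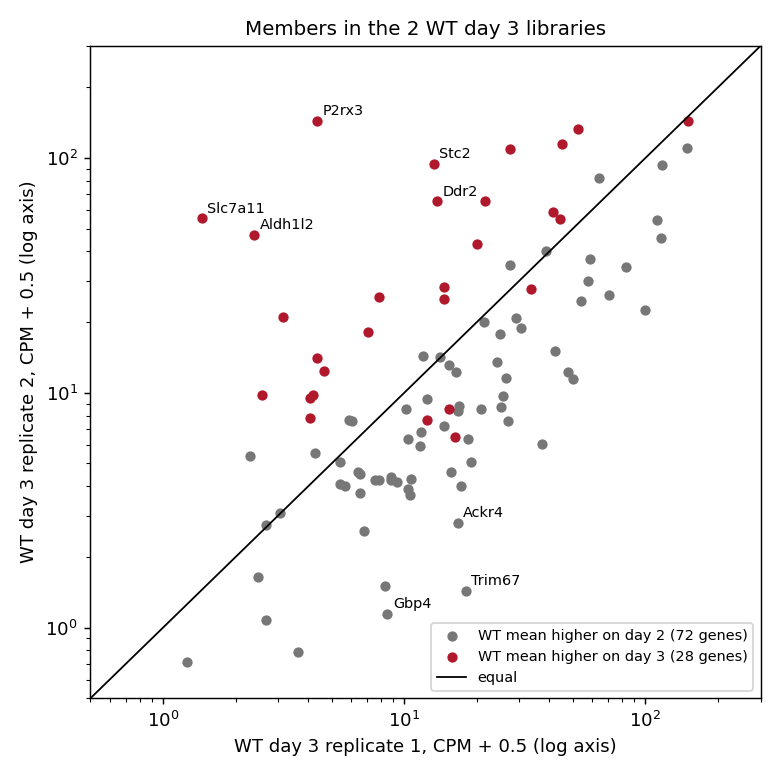
Each point is a member, placed by its level in WT day 3 replicate 1 and replicate 2 on log axes, with the line of equal level. Most of the 28 members with the higher mean on day 3 (red) lie above the line, 18 of them by more than 2-fold, and 33 of the 72 day 2 members (grey) lie more than 2-fold below it.

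The KO course took no part in the choice, and there the members could be tested. All 100 passed the expression filter in the KO fit. The mean of days 2 and 3 was compared with the mean of days 1 and 4 with edgeR's quasi-likelihood test over 17451 genes, with calls made where the Benjamini-Hochberg adjusted p was below 0.05. In KO, 79 members rose in mid-course and 0 fell, where 9.31% of all genes tested were called higher and 3.58% lower. At an unadjusted p below 0.05 edgeR had 91 members higher and 0 lower, and DESeq2 called 78 higher and 0 lower. The median log2 fold change was 1.22 over the members and 0.03 over all genes tested. Of the 72 day 2 members 65 rose, and of the 28 day 3 members 14 rose. Of the 83 members that stayed when WT day 3 replicate 2 was left out of the choice 72 rose, and of the other 17, 7 rose. Without any test, 60 members had all 4 KO libraries of days 2 and 3 above all 4 of days 1 and 4, which 5.03% of the genes tested did.

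**Figure D3:**
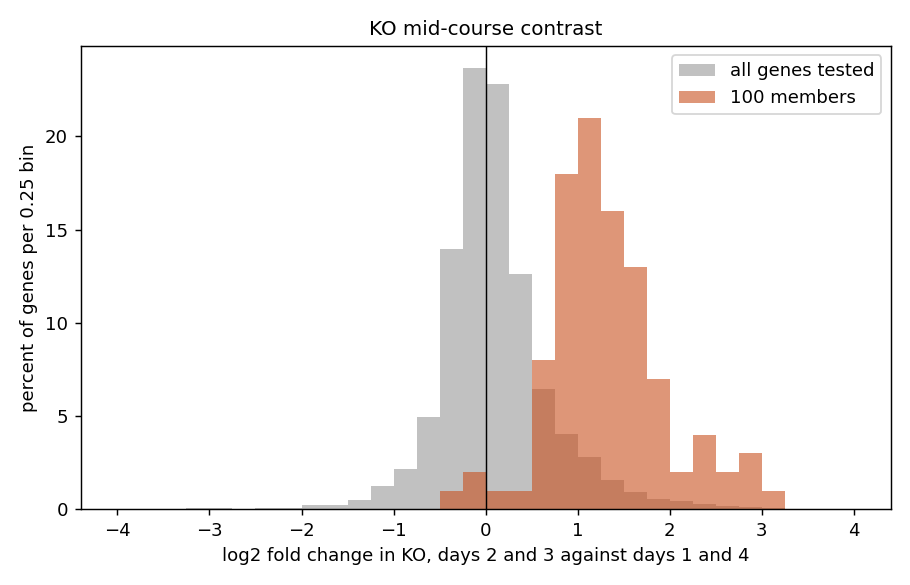
Bars give the percentage of genes in each bin of 0.25 of the log2 fold change between days 2 and 3 and days 1 and 4 in KO, for all 17451 genes tested (grey) and for the 100 members (orange). The members are centred at a median of 1.22 and all genes at 0.03.

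Taken day by day, the rise from day 1 was called for more members than the later decline. Against KO day 1, 78 members were higher on day 2 and 0 lower (22.2% and 18.6% of all genes), and DESeq2 also called 78 and 0, with 80 and 0 at an unadjusted p below 0.05 in edgeR. On day 3, 69 were higher than on day 1 (29.5% of all genes) and Trh alone was lower (26.9%). Against KO day 4, 60 members were higher on day 2 (15.5% of all genes) and 3 were lower (17.6%), namely Hoxb5os, Nptx1 and Igfbp5. The 60 were 26 without KO day 4 replicate 1 and 38 without KO day 2 replicate 2. Between KO day 3 and day 4 edgeR called 0 members in either direction, as it called 0% of all genes higher and 0.0229% lower. There 61 members were higher and 0 lower at an unadjusted p below 0.05, DESeq2 called 30 higher and 0 lower, edgeR called 44 higher with no expression filter, and edgeR called 36 higher without KO day 3 replicate 2. At the day of the higher WT mean, 48 members were above both day 1 and day 4 in KO, all of them day 2 members, while 2.37% of all genes were above both on day 2 and 0% on day 3. A further 32 were above day 1 alone, 7 above day 4 alone and 13 above neither. Leaving out 1 library took the count of 48 to 26 (KO day 2 replicate 1), 24 (KO day 2 replicate 2) or 22 (KO day 4 replicate 1). The highest KO mean fell on day 2 for 75 members, on day 3 for 19, on day 4 for 6 and on day 1 for 0, and the same ratio as the WT score, taken in KO, had a median of 1.91 and a range of 0.72 to 8.83.

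Genes of the interferon response and of antigen processing made up 14 members, all with the higher WT mean on day 2. They are Psmb8 and Psmb10, catalytic subunits of the immunoproteasome; Psme2b, a copy of a proteasome activator subunit; Tap2, 1 chain of the peptide transporter of the endoplasmic reticulum; Tapbp, which encodes the loading chaperone tapasin; the MHC class I gene H2-T10; the transcription factor Irf1; and Oasl2, Gbp4, Parp9, Parp14, Dtx3l, Nmi and Zbp1, which are interferon-induced genes. These and the other sets of members below were drawn up by textbook role after values had been seen, so their counts describe them and test nothing. In KO, 14 of the 14 rose in mid-course (9.31% of all genes), with log2 fold changes of 0.91 to 3.11. Against KO day 1, 14 of 14 were higher on day 2 (22.2% of all genes) and 14 of 14 on day 3 (29.5%). By contrast, 7 of 14 were higher on day 2 than on day 4 (15.5%).

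Psmb8 stood at 0.614 and 0.871 CPM on WT day 1, 24.4 and 42.0 CPM on day 2, 16.7 and 3.52 CPM on day 3 and 4.39 and 5.72 CPM on day 4. The KO levels were 1.16 and 0.593 CPM, 22.7 and 21.9 CPM, 34.0 and 19.7 CPM, and 11.2 and 13.4 CPM on the same days. All 4 mid-course KO libraries thus exceeded the others, and on days 3 and 4 both KO libraries exceeded both WT libraries. The KO mid-course log2 fold change was 2.79 ± 0.22 (SE; edgeR adjusted p = 3.0e-04). Irf1, which encodes a transcription factor that activates many of these genes, stood at 60.5 and 60.6 CPM, 231 and 269 CPM, 112 and 54.0 CPM, and 60.0 and 66.5 CPM on WT days 1 to 4. KO libraries had 66.1 and 50.2 CPM, 279 and 259 CPM, 221 and 144 CPM, and 90.9 and 112 CPM. Its day 2 levels in WT and KO overlapped, and its KO libraries of days 3 and 4 were all above the WT libraries of the same day. Irf1 rose in KO mid-course by 1.42 ± 0.15 on the log2 scale (edgeR adjusted p = 6.9e-04).

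Zbp1, a sensor of left-handed nucleic acids, had the largest KO mid-course rise of the members, 3.11 ± 0.36 on the log2 scale (edgeR adjusted p = 0.0011). It stood at 1.19 and 1.10 CPM on KO day 1, 17.9 and 16.6 CPM on day 2, 29.9 and 9.95 CPM on day 3 and 2.00 and 4.88 CPM on day 4. In WT the levels were 0.736 and 0.435 CPM, 22.7 and 30.6 CPM, 7.83 and 1.00 CPM, and 2.07 and 2.75 CPM. Every mid-course KO library was above every flanking one, while the second WT day 3 library was below both WT day 4 libraries. Tap2 rose by 2.18 ± 0.20 (edgeR adjusted p = 4.6e-04), Gbp4 by 2.44 ± 0.25 (edgeR adjusted p = 5.8e-04) and Oasl2 by 1.59 ± 0.15 (edgeR adjusted p = 4.7e-04). As a description, both KO libraries exceeded both WT libraries in 12 of the 14 on day 3 and in 12 of the 14 on day 4 (14.9% and 22.3% of all genes), against 0 of the 14 on day 2 (24.9% of all genes), where both KO libraries were lower in 6 (31% of all genes). The median KO minus WT difference was −0.22 on day 2, 1.30 on day 3 and 0.88 on day 4 on the log2 scale. All 14 were lower in WT day 3 replicate 2 than in replicate 1. Against WT day 3 replicate 1 alone, both KO libraries were higher in 12 of the 14 and lower in 1. Over all 100 members they were higher in 25 and lower in 51, and the share over all genes was not computed. Since the choice favoured high WT values on days 2 and 3 and low WT values on days 1 and 4, nothing is read from these counts.

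A longer list of 20 interferon response genes, which holds Irf1, Oasl2 and Psmb8, gave other counts. Of its 19 genes tested in KO, 7 rose in mid-course and 1 fell (9.31% and 3.58% of all genes). On day 2, 15 were higher and 1 lower than on day 1 (22.2% and 18.6%). Against day 4, however, 2 were higher on day 2 and 6 lower (15.5% and 17.6%). Isg15, the ubiquitin-like modifier and a non-member, stood at 0.617 and 0.381 CPM on KO day 1, 10.7 and 12.6 CPM on day 2, 14.1 and 14.2 CPM on day 3 and 19.1 and 10.1 CPM on day 4. The first KO day 4 library lay above every KO library of days 2 and 3, and the second lay just below all of them.

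Genes of the 2-cell-like state made up 14 members: Zscan4c, Zscan4d, Zscan4e and Zscan4f, the SCAN zinc finger genes that mark the state; Usp17la, Usp17lb, Usp17lc, Usp17ld and Usp17le, which encode deubiquitinases; Tcstv3; Zfp352, a zinc finger gene of the 2-cell embryo; and Tmem92, Arg2 and Spz1. In KO 13 of the 14 rose in mid-course (9.31% of all genes), by 0.89 to 1.77 on the log2 scale among those called. Tcstv3 did not pass at 0.55 ± 0.23 (edgeR adjusted p = 0.14). Of the 14, 13 were higher on KO day 2 than on day 1 (22.2% of all genes), and 11 were higher than on day 4 (15.5%). Their gene list has 15 genes tested in KO, of which 14 rose, the non-member Zscan4b by 1.46 ± 0.17 (edgeR adjusted p = 0.0011).

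Zscan4d stood at 9.65 and 18.5 CPM on WT day 1, 113 and 140 CPM on day 2, 150 and 143 CPM on day 3 and 36.5 and 45.9 CPM on day 4. The KO levels were 36.7 and 43.4 CPM, 98.0 and 134 CPM, 76.8 and 89.5 CPM, and 41.9 and 50.4 CPM. KO thus began above WT on day 1 and was below it on day 3, with overlap on days 2 and 4. Zfp352 stood at 0.450 and 0.697 CPM, 8.499 and 16.9 CPM, 11.9 and 8.90 CPM, and 4.72 and 4.17 CPM in WT. KO libraries had 1.58 and 1.36 CPM, 5.02 and 6.98 CPM, 6.23 and 3.91 CPM, and 1.13 and 1.94 CPM. Its KO mid-course log2 fold change was 1.77 ± 0.25 (edgeR adjusted p = 0.0026), and its WT levels were the higher ones from day 2 on. Usp17le, the 2-cell-like member with the highest WT score, stood at 9.94 and 19.5 CPM, 75.7 and 111 CPM, 58.2 and 36.7 CPM, and 14.4 and 20.4 CPM in WT. The KO levels were 10.0 and 8.64 CPM, 26.6 and 31.4 CPM, 24.1 and 23.6 CPM, and 10.6 and 13.0 CPM. The KO levels on day 2 were below both WT levels of that day, and the KO rise was 1.22 ± 0.13 (edgeR adjusted p = 8.3e-04).

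As a description, both KO libraries were below both WT libraries in 11 of the 14 on day 2, 11 on day 3 and 11 on day 4 (31%, 27.8% and 30.9% of all genes), with a median log2 difference of −0.999 on day 2 and −0.91 on day 3. Against WT day 3 replicate 1 alone, both KO libraries were lower in 14 of the 14 and in 51 of all 100 members. The share over all genes was not computed for that comparison. On day 1 the order was the other way, with both KO libraries higher in 8 of the 14 (26% of all genes) and a median difference of 0.89. Since the choice favoured high WT values on days 2 and 3 and low WT values on days 1 and 4, nothing is read from this order.

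**Figure D4:**
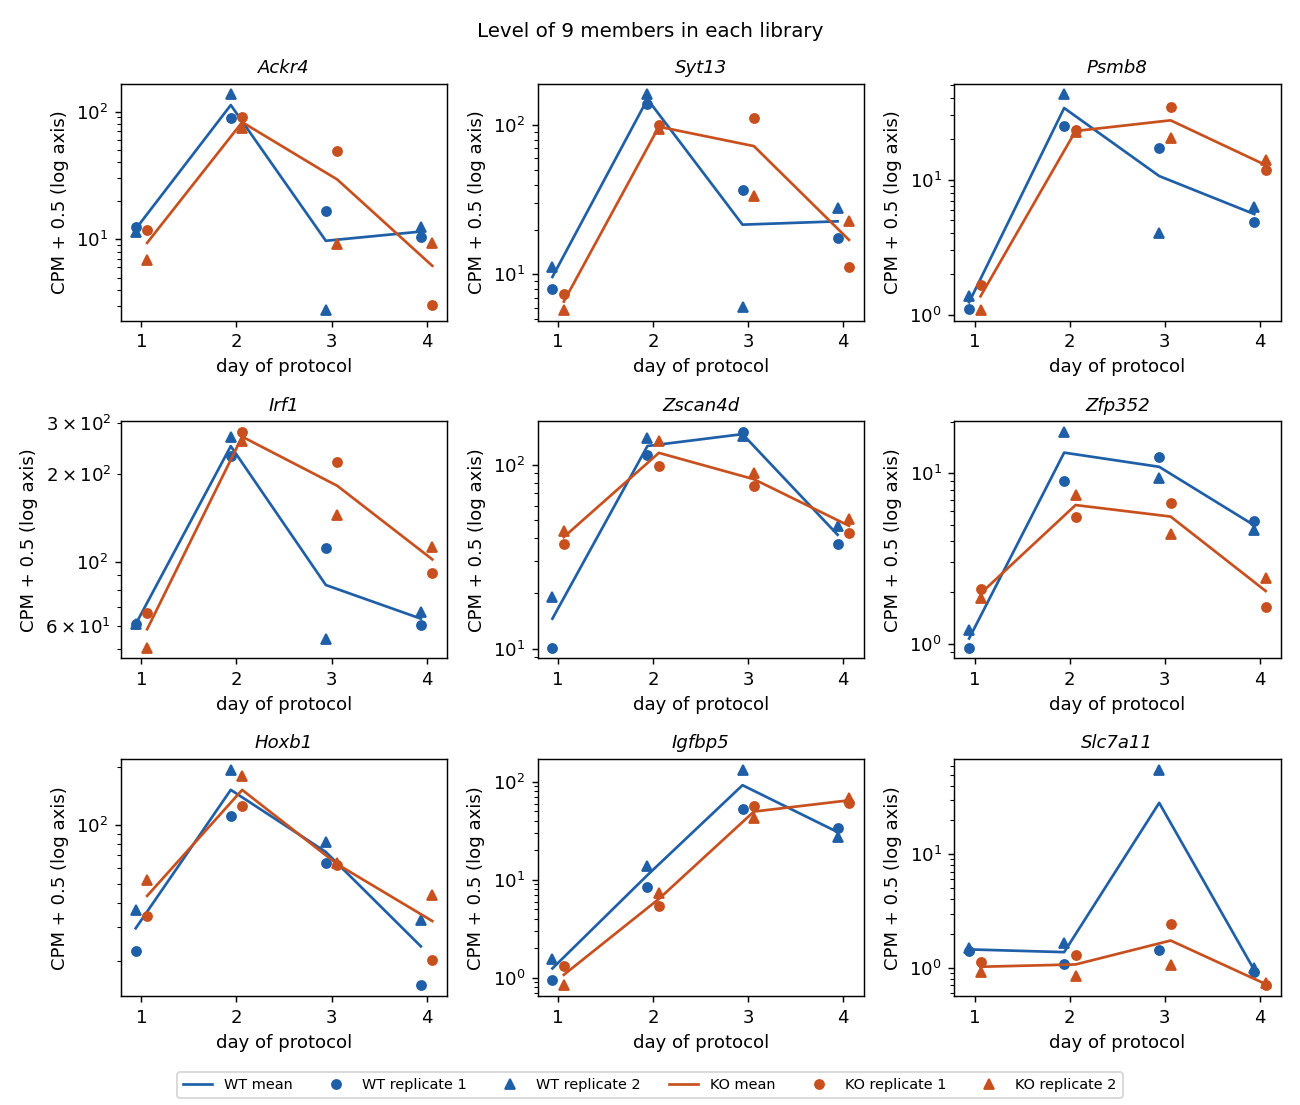
The level of 9 members is plotted as CPM + 0.5 on a log axis against the day of the protocol, with WT in blue, KO in orange, each replicate as a symbol and the mean of 2 as a line. Psmb8 and Irf1 are higher in KO than in WT on days 3 and 4, Zscan4d and Zfp352 have the higher WT levels on day 3, and Slc7a11 is high in WT day 3 replicate 2 alone.

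The Zscan4 promoters are shown because these windows are nearly the same between the copies. Compared without gaps at the best shift, the windows of Zscan4c and Zscan4f agree at 275 of 277 bases (99.3%), Zscan4c and Zscan4d at 281 of 289 (97.2%) and Zscan4d and Zscan4f at 259 of 266 (97.4%). They are RefSeq windows of 300 bases around the annotated start, 5′ to 3′, in GRCm38.p6, which is the mm10 assembly, at chr7:11005495-11005794 (plus strand), chr7:11166099-11166398 (minus strand) and chr7:11397665-11397964 (plus strand). Each holds 1 TATA box, TATAAA, in capitals.
Zscan4c: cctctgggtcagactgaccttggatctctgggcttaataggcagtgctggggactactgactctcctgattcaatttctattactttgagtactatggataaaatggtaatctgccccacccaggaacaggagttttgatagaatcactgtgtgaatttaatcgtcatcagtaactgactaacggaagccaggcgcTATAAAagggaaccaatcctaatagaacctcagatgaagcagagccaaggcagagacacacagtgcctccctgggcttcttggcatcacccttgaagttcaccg
Zscan4d: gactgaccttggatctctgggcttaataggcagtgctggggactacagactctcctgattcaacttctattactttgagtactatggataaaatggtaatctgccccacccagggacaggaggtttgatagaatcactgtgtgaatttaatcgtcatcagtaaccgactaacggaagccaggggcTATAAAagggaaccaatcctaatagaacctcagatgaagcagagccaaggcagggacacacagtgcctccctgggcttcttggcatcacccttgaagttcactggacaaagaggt
Zscan4f: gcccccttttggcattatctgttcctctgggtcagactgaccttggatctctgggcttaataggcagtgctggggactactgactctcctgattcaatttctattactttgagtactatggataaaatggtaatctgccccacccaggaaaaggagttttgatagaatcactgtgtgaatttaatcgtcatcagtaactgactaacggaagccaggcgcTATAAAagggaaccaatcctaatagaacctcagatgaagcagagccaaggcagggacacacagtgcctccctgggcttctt
RefSeq held a promoter for 70 members, and TATAAA on either strand was found in 16 of them (22.9%) and in 14.2% of all 27025 promoters. For the 4 Usp17l genes with a promoter in the table the same comparison gave 67.7% to 96.8% identical bases. How alike the transcripts are was not measured. Where copies of a family share sequence, reads can be split or shared among them, so the value of any one Zscan4 or Usp17l copy is uncertain.

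The HOXB cluster gave 6 members within 1 stretch of chromosome 11, at 96271457 to 96368256 of GRCm38: Hoxb1, Hoxb6, Hoxb8 and Hoxb9, which encode homeodomain proteins that set position along the body axis, and the antisense transcripts Hoxb3os and Hoxb5os. In KO 5 of the 6 rose in mid-course (9.31% of all genes), and Hoxb6 did not pass at 0.65 ± 0.23 (edgeR adjusted p = 0.093). Hoxb1, the 3′-most gene of the cluster, stood at 22.1 and 36.1 CPM on WT day 1, 111 and 192 CPM on day 2, 63.6 and 81.3 CPM on day 3 and 14.6 and 32.2 CPM on day 4. The KO levels were 33.8 and 52.1 CPM, 124.7 and 178 CPM, 61.7 and 63.5 CPM, and 19.9 and 43.6 CPM. The genotypes overlapped on days 1, 2 and 4. Hoxb1 was the only HOXB member above both flanking days in KO on its WT day, at 1.66 ± 0.34 against day 1 (edgeR adjusted p = 0.0048) and 2.06 ± 0.35 against day 4 (edgeR adjusted p = 0.0019). The 4 with the higher WT mean on day 3 could not pass, since 0% of all genes were called higher on KO day 3 than on day 4. On KO day 2, Hoxb8 was also above day 1 (1.69 ± 0.28, edgeR adjusted p = 0.0018) and day 4 (1.15 ± 0.27, edgeR adjusted p = 0.011). 

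Hoxb5os, by contrast, had risen and not come down in KO. It stood at 0.245 and 0.218 CPM, 0.809 and 1.47 CPM, 7.36 and 25.1 CPM, and 2.82 and 2.54 CPM on WT days 1 to 4. KO libraries had 0.154 and 0.127 CPM, 2.00 and 2.58 CPM, 2.95 and 7.72 CPM, and 5.93 and 5.47 CPM. Its KO day 2 was below its KO day 4 by 1.52 ± 0.43 on the log2 scale (edgeR adjusted p = 0.022), and its exons overlap those of Hoxb5 on the opposite strand, so reads of the 2 genes cannot be told apart if counting ignored strand. Of the whole list of 23 HOX genes tested in KO, 12 rose in mid-course and 0 fell (9.31% and 3.58% of all genes). On day 2, 17 of them were higher than on day 1 (22.2%), and 3 were higher and 9 lower than on day 4 (15.5% and 17.6%).

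Neuropeptide, synaptic and neuronal genes gave 10 members, of which 8 rose in KO mid-course (9.31% of all genes). Among those calls, the ones of P2rx3, Gal and Trh were lost under 11, 7 and 5 of 13 alternatives. A list of 32 neural progenitor and neuron genes, which holds 1 member, gave other counts. Of its 24 genes tested in KO, 7 rose in mid-course and 2 fell (9.31% and 3.58% of all genes). Against day 4, 8 of them were higher on day 2 and 7 lower (15.5% and 17.6%). Syt13, a synaptotagmin of secretory cells, stood at 7.44 and 10.8 CPM on WT day 1, 138 and 161 CPM on day 2, 36.6 and 5.53 CPM on day 3 and 17.1 and 27.3 CPM on day 4. KO libraries had 6.86 and 5.30 CPM, 100.6 and 94.1 CPM, 111 and 33.1 CPM, and 10.7 and 22.4 CPM. All mid-course KO libraries were above the flanking ones, and its rise of 2.96 ± 0.35 (edgeR adjusted p = 0.0012) was among the 3 largest. Ap3b2, a subunit of the neuronal AP-3 coat, stood at 74.9 and 66.0 CPM, 357 and 388 CPM, 182.4 and 133 CPM, and 43.2 and 104 CPM in KO. It rose by 1.65 ± 0.22 (edgeR adjusted p = 0.0020).

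Trh, which encodes the precursor of thyrotropin-releasing hormone, began high in KO. It stood at 227 and 216 CPM on KO day 1, 359 and 319 CPM on day 2, 150 and 57.9 CPM on day 3 and 13.9 and 30.6 CPM on day 4. In WT it stood at 49.9 and 59.4 CPM, 171 and 278 CPM, 82.8 and 33.7 CPM, and 25.7 and 20.5 CPM. Both WT day 2 libraries were above both of WT day 1, whereas both KO day 1 libraries lay within the range of the WT day 2 libraries. In KO, Trh fell by 1.11 on the log2 scale from day 1 to day 3 (SE 0.40, edgeR adjusted p = 0.038), a call lost when either KO day 1, either KO day 2 or the second KO day 3 library was left out, while day 2 against day 1 was 0.47 ± 0.39 (edgeR adjusted p = 0.36). Nptx1, a neuronal pentraxin, stood at 7.80 and 10.4 CPM on KO day 4 and at 1.02 and 1.57 CPM on KO day 2, and its KO mid-course change was −0.17 ± 0.24 (edgeR adjusted p = 0.66).

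Several members with no common role also rose in KO. Ackr4, a scavenging receptor for chemokines, stood at 12.1 and 10.97 CPM, 88.2 and 136 CPM, 16.1 and 2.30 CPM, and 9.94 and 12.01 CPM on WT days 1 to 4. The KO levels were 11.4 and 6.31 CPM, 90.1 and 74.3 CPM, 49.0 and 8.74 CPM, and 2.53 and 8.83 CPM. Day 2 was far above the flanking days in both genotypes, and the second KO day 3 library lay within their range. Ackr4 was 3.08 ± 0.69 higher on KO day 2 than on day 1 (edgeR adjusted p = 0.0072) and 3.65 ± 0.72 higher than on day 4 (edgeR adjusted p = 0.0045), and has the highest KO ratio, 8.83.

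Trim67, a ubiquitin ligase of neurons, stood at 36.8 and 23.9 CPM, 139 and 141 CPM, 88.4 and 27.0 CPM, and 5.47 and 13.6 CPM in KO, where WT had at most 67.5 CPM. It rose by 2.30 ± 0.35 (edgeR adjusted p = 0.0038). Dnah14, a dynein heavy chain, rose by 2.40 ± 0.31 (edgeR adjusted p = 0.0016), Ephx3, an epoxide hydrolase, by 2.96 ± 0.38 (edgeR adjusted p = 0.0016), and Ms4a4d by 2.48 ± 0.36 (edgeR adjusted p = 0.0028). The homeobox genes Esx1, of the trophoblast list, and Msx1, a BMP responder, rose by 1.77 ± 0.22 (edgeR adjusted p = 0.0016) and 1.07 ± 0.19 (edgeR adjusted p = 0.0080).

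Not all members followed the mid-course shape in KO. Igfbp5, which encodes a secreted binding protein of insulin-like growth factors, stood at 0.809 and 0.339 CPM on KO day 1, 4.93 and 6.85 CPM on day 2, 55.8 and 42.7 CPM on day 3 and 60.2 and 68.5 CPM on day 4. WT libraries had 0.450 and 1.04 CPM, 8.04 and 13.3 CPM, 52.2 and 132 CPM, and 33.4 and 27.1 CPM. The KO level was highest on day 4, while both WT day 4 libraries were below both WT day 3 libraries. Igfbp5 passed the mid-course test (1.37 ± 0.21, edgeR adjusted p = 0.0035), yet its KO day 2 was below day 4 by 3.65 ± 0.27 (edgeR adjusted p = 9.1e-05). Arg1, an arginase, and Hist1h2bc, a histone gene, did not pass in KO at 0.77 ± 0.24 (edgeR adjusted p = 0.061) and −0.31 ± 0.25 (edgeR adjusted p = 0.45).

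Slc7a11, Aldh1l2, Stc2 and Atf5 formed the group in which 0 of 4 were called in KO mid-course by edgeR, although 4 were higher at an unadjusted p below 0.05. Of all genes, 9.31% were called higher and 3.58% lower. Slc7a11 encodes the cystine importer, Aldh1l2 a mitochondrial folate enzyme, Stc2 the secreted stanniocalcin 2 and Atf5 a stress-responsive leucine zipper factor. Slc7a11 stood at 0.900 and 1.00 CPM on WT day 1, 0.578 and 1.17 CPM on day 2, 0.943 and 54.8 CPM on day 3 and 0.414 and 0.494 CPM on day 4. In KO its 8 libraries lay between 0.200 and 1.92 CPM. The gene with the highest score of all was thus high in 1 library only, and its KO mid-course change was 1.25 ± 0.48 (edgeR adjusted p = 0.11). Aldh1l2 stood at 1.89 and 46.6 CPM and Stc2 at 12.7 and 93.9 CPM in the 2 WT day 3 libraries, each with every other WT library at or below 9.03 CPM and 20.6 CPM.

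P2rx3, which encodes an ATP-gated channel of sensory neurons, had the second highest score and was also far higher in 1 WT day 3 library than in the other. It stood at 3.68 and 3.61 CPM, 6.48 and 19.98 CPM, 3.87 and 144 CPM, and 2.48 and 2.40 CPM on WT days 1 to 4. The KO levels were 3.12 and 2.46 CPM, 7.51 and 3.34 CPM, 20.1 and 2.88 CPM, and 1.60 and 1.77 CPM. WT day 2 replicate 2, WT day 3 replicate 2 and KO day 3 replicate 1 were the high libraries. Its KO mid-course call, 1.77 ± 0.50 (edgeR adjusted p = 0.047), was lost under 11 of 13 alternatives, and its exons overlap those of Ssrp1 on the opposite strand. Gal, the galanin precursor, stood at 2.64 and 20.6 CPM on WT day 3, and its KO call, 1.59 ± 0.46 (edgeR adjusted p = 0.048), was lost under 7 of 13.

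Stress genes that are no members were also high in WT day 3 replicate 2. Trib3, a target of the amino acid response and no member, stood at 13.5 and 114 CPM in WT day 3 replicates 1 and 2, Chac1 at 13.7 and 108 CPM, Asns at 192 and 845 CPM and Sesn2 at 136 and 251 CPM. The other 7 WT libraries held at most 54.7 CPM of Trib3 and 588 CPM of Asns. Ddit3 stood at 19.1 and 20.4 CPM and Atf4 at 271 and 255 CPM in the same libraries. The part of these high levels in the values of the day 3 members was not tested. Over the 8 KO libraries the genes most like Slc7a11 were Eif4h (Pearson r = 0.93), Phf10 (0.91) and Ccdc79 (0.91), and those most like P2rx3 were Eif4h (0.97), Rmnd1 (0.95) and Cldn10 (0.93), as a description over libraries that share depth and day.

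The Slc7a11 promoter is shown because it holds 2 matches, in capitals, to the amino acid response element TGATGNAA, one on each strand. The window is at chr3:50443564-50443863 on the minus strand of GRCm38.p6.
Slc7a11: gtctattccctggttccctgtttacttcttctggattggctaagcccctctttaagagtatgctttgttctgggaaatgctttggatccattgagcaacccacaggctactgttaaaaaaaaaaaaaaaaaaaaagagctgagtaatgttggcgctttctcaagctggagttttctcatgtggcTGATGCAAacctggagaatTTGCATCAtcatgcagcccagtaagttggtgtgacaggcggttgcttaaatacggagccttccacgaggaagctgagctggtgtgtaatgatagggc
The element was found on either strand in 4 of the 70 member promoters (5.71%) and in 4.06% of all. The core of the interferon element, GAAA and GAAA with 2 bases of any kind between them, was found in 4 (5.71%) against 3.49%. Those 4 were Phf11a, Usp17ld, BC147527 and Usp17lc, which are not among the interferon and antigen processing members. A match is only a run of letters. The antioxidant element TGACNNNGC was found in 8 (11.4%) against 12.5%, and 0 of the 70 held the DUX element (TGATT and AATCA with any base between) or the retinoic acid repeat of AGGTCA with 5 bases between its copies, against 0.0407% and 0.0074% of all.

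At the endpoint the members were not called in 1 direction. Of the 87 members tested between WT diff_XEN and WT mESC, 35 were higher and 9 lower in diff_XEN, where 27.2% of all genes were called higher and 25.3% lower. Of the 84 tested between KO and WT diff_XEN, 30 were higher and 19 lower in KO (22.1% and 24.9% of all genes). Both comparisons share the 2 WT diff_XEN libraries. Without WT diff_XEN library A the count of 35 was 21 and that of 19 was 10. Without library B the count of 9 was 4 and that of 19 was 12, and without KO library 5-3 the count of 19 was 10. In the same KO comparison, 0 of 19 visceral endoderm markers tested were higher and 15 lower, 2 of 20 primitive endoderm and XEN markers were higher and 17 lower, and 13 of 19 fibroblast and mesenchyme markers were higher and 2 lower. The part of these markers' cells in the members' differences was not tested.

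The interferon and antigen processing members moved as a body, with 14 of 14 higher in KO than in WT diff_XEN (22.1% of all genes), by 1.86 to 6.29 on the log2 scale. Psmb8 stood at 0.906 and 0.311 CPM in WT and 46.6 and 51.5 CPM in KO diff_XEN (C4 and 5-3), a difference of 6.29 ± 0.48 (edgeR adjusted p = 0.0022). Zbp1 stood at 0.467 and 0.181 CPM in WT and 20.9 and 18.8 CPM in KO (5.88 ± 0.45, edgeR adjusted p = 0.0022). Oasl2 stood at 24.7 and 9.90 CPM in WT and 330 and 610 CPM in KO (4.73 ± 0.57, edgeR adjusted p = 0.0036). Both KO libraries were far above both WT libraries for all 3 genes. Tap2 differed by 4.41 ± 0.42 (edgeR adjusted p = 0.0026), H2-T10 by 4.34 ± 0.84 (edgeR adjusted p = 0.011) and Psmb10 by 4.13 ± 0.29 (edgeR adjusted p = 0.0022). Of the 20 genes of the interferon response list, members included, 19 were higher and 0 lower in KO diff_XEN (22.1% and 24.9% of all genes). Of the same 20, 15 were higher in WT diff_XEN than in WT mESC (27.2% of all genes). Among the 14 members that last comparison gave 3 higher and 2 lower (27.2% and 25.3% of all genes), Zbp1 being lower by 2.28 on the log2 scale (edgeR adjusted p = 0.0055).

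The amino acid and stress members went the other way, with 4 of 4 lower in KO than in WT diff_XEN (24.9% of all genes). Slc7a11 stood at 22.8 and 28.03 CPM in WT diff_XEN, 0.502 and 0.359 CPM in KO diff_XEN and 6.20 and 19.3 CPM in WT mESC. Aldh1l2 stood at 113 and 138 CPM, 1.51 and 3.50 CPM, and 30.02 and 41.9 CPM in the same groups, and Stc2 at 182.01 and 146 CPM, 2.51 and 5.12 CPM, and 43.6 and 89.5 CPM. P2rx3 stood at 137 and 152 CPM, 1.36 and 2.43 CPM, and 16.8 and 10.9 CPM. For Slc7a11, Aldh1l2, Stc2 and P2rx3 both KO libraries were below all 4 WT libraries. Atf5 stood at 131 and 127 CPM in WT diff_XEN, 30.4 and 55.3 CPM in KO diff_XEN and 33.5 and 13.7 CPM in WT mESC. Its KO levels were thus below both WT diff_XEN libraries but not below both mESC libraries. The log2 differences between KO and WT diff_XEN were −5.99 ± 0.34 for Slc7a11, −5.62 ± 0.45 for Aldh1l2, −5.42 ± 0.40 for Stc2 and −6.24 ± 0.34 for P2rx3 (edgeR adjusted p = 0.0022, 0.0023, 0.0022 and 0.0022).

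**Figure D5:**
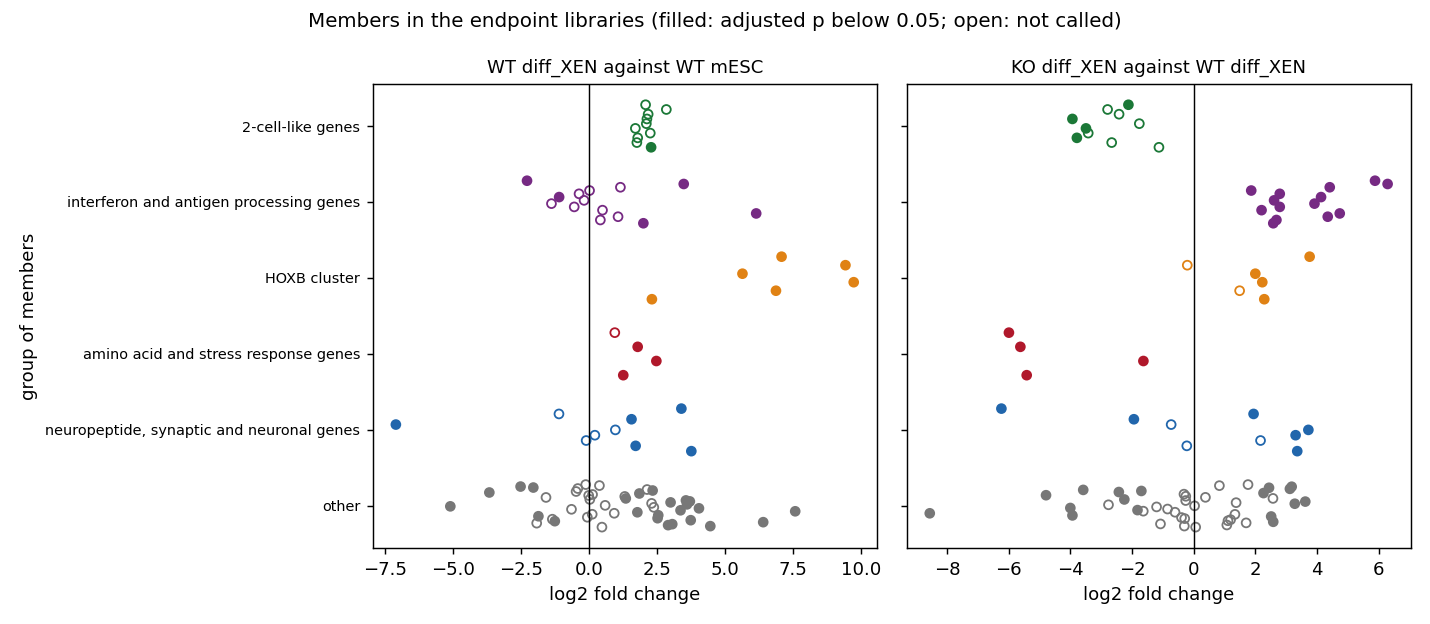
Each point is a member tested, placed by its log2 fold change at the endpoint and grouped by role, filled where the edgeR adjusted p was below 0.05 and open where it was not. The interferon and antigen processing members lie right of 0 in KO against WT diff_XEN, 14 of 14 filled, and the 4 amino acid and stress response members lie left of it.

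All 6 HOXB members were higher in WT diff_XEN than in WT mESC (27.2% of all genes). Hoxb6 had 0 counts in both mESC libraries and 3.46 and 2.80 CPM in WT diff_XEN, at least 82.96-fold higher when 3 counts over both libraries are set as the floor. By the same floor Hoxb1 was at least 67.4-fold higher, Hoxb5os at least 13.1-fold and Hoxb3os at least 11.3-fold. These bounds cover counting error only. In KO diff_XEN 4 of the 6 were higher than in WT diff_XEN (22.1% of all genes). Hoxb5os was higher by 3.76 ± 0.59 (edgeR adjusted p = 0.0063), Hoxb9 by 2.29 ± 0.31 (edgeR adjusted p = 0.0044), Hoxb6 by 2.22 ± 0.26 (edgeR adjusted p = 0.0034) and Hoxb8 by 2.00 ± 0.33 (edgeR adjusted p = 0.0075). Hoxb1 was not called at −0.21 ± 0.95 (edgeR adjusted p = 0.87).

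Of the 2-cell-like members 10 of 14 were tested at the endpoint, at low levels. Zscan4d stood at 4.09 and 2.07 CPM in WT diff_XEN, 0.502 and 0.0299 CPM in KO diff_XEN and 1.37 and 0.0756 CPM in mESC. The first mESC library was within the range of the 4 diff_XEN libraries, and the levels of both KO libraries were below both of WT. In KO diff_XEN 4 of the 10 were lower than in WT and 0 higher (24.9% and 22.1% of all genes). Zscan4d was lower by 3.94 on the log2 scale (SE 1.04, edgeR adjusted p = 0.028). At an unadjusted p below 0.05, 8 of the 10 were lower and 0 higher.

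Among the other members, Trh fell furthest between mESC, at 239.7 and 190.1 CPM, and WT diff_XEN, at 2.83 and 0.363 CPM (−7.10 ± 0.80, edgeR adjusted p = 5.9e-04). Igfbp5 rose from 0.722 and 0.429 CPM to 92.5 and 127 CPM (7.58 ± 0.51, edgeR adjusted p = 1.1e-04). Arg1 had 2 counts in mESC and 185 in WT diff_XEN, a ratio of 98.4 with an exact 95% counting interval of 26.9 to 818. Crtac1, a cartilage matrix protein, differed by −3.67 ± 0.72 (edgeR adjusted p = 0.0050), Trim67 by −2.52 ± 0.82 (edgeR adjusted p = 0.035) and Coch, the matrix protein cochlin, by −2.05 ± 0.54 (edgeR adjusted p = 0.016). Kctd19 had 46 counts in mESC and 1 in WT diff_XEN, a ratio of 43.2 with an interval of 7.38 to 1745. Dpep3, a dipeptidase of the testis, had 114 counts in WT diff_XEN and 0 in KO diff_XEN, at least 23.97-fold lower in KO, and Spesp1, a sperm protein, had 90 and 2 counts, a ratio of 28.4 with an interval of 7.63 to 238.

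Across the course, KO and WT levels of the members were compared without a test, since the choice had used the WT values. On day 2 both KO libraries were below both WT libraries in 57 members and above in 12 (31% and 24.9% of all genes). On day 3 they were below in 40 and above in 20 (27.8% and 14.9%). On day 4 they were below in 42 and above in 26 (30.9% and 22.3%), and on day 1 below in 29 and above in 38 (39.7% and 26%). At the day of the higher WT mean the counts were 58 below, 8 above and 34 overlapping. The choice favoured high WT values on days 2 and 3 and low WT values on days 1 and 4, and nothing is read from these counts.

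Some members lay close together in the genome. All 100 were placed in a GENCODE annotation of GRCm38, 95 of them as protein coding genes, and 35 fell into 12 runs in which neighbouring members lay within 1000000 bases. Besides the HOXB run these include 4 Zscan4 genes and 2 groups of Usp17l genes on chromosome 7, Parp14, Dtx3l and Parp9 on chromosome 16, Tapbp, Psmb8 and Tap2 within the MHC on chromosome 17, and AF067061, BC147527 and Tcstv3 on chromosome 13. Exons of 26 members overlap those of a gene on the opposite strand and exons of 9 those of a gene on the same strand, so the counts of those members are uncertain where the counting shared or dropped such reads.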

How the data were processed

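Values were raw read counts per gene as deposited by the authors, whole numbers whose totals differ between libraries. The submitters' processing notes name mm10, featureCounts 1.4.5-p1 and STAR 2.5.0c. Which gene annotation was counted, and whether strand was used, is not given in the sources used here. The labels describe a reverse-stranded library protocol. Groups were taken from the sample labels. In the table of the whole series, 3 columns were tied to no sample and not used, and KO mESC was not analysed here.

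From the counts, CPM was computed as count over library total. Tests used edgeR 4.0.16 (quasi-likelihood, TMM, default expression filter, robust, group means, no covariates) in R 4.3.3, with Benjamini-Hochberg adjustment over all genes tested and a threshold of 0.05. The KO course was fitted alone on its 8 libraries, which the choice of members did not use. KO and WT diff_XEN were fitted on 4 libraries, and WT diff_XEN and mESC on 6 endpoint libraries joined by identifier. WT course contrasts and KO against WT contrasts of days 1 to 4 were not tested.

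The members and lists were chosen with earlier results of these data known. Genes listed only by an identifier were taken as not named. Named genes were members in a gene list, the 10 highest scores for each WT day, the 10 largest KO mid-course changes in each direction among those called, and the 6 largest endpoint changes in each direction; Isg15, Nptx1, the stress genes and other members named by role or position were chosen after their values were seen. Symbols were matched to GENCODE and RefSeq; promoter entries had to lie at the gene. Alternatives were DESeq2 1.42.0, its size factors, no filter, all 16 course libraries, a replicate block and leaving out each library. The test was checked on simulated counts, but the outcome is not given here and nothing rests on it. The values of 1 member and 1 promoter motif are not reported here.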

Additional observations from a re-analysis of the deposited data

How the results depend on the processing

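Repeating the choice of members kept 95 of 100 with TMM-scaled CPM, 96 with 1 CPM added in the score, 78 with a minimum of 10 CPM, 88 with 2 CPM and 96 with genes listed only by identifier counted as named, an alternative added after seeing the data. Leaving out 1 WT library kept 70 to 95. The KO mid-course count of 79 higher was 61 to 83 when 1 KO library was left out. Day 3 against day 1 gave 1 lower, but 2 with no filter, 0 with all 16 libraries and 0 to 3 with 1 library left out. Day 2 against day 4 gave 60 higher, but 26 to 67 with 1 library left out, the lowest without KO day 4 replicate 1 and 38 without KO day 2 replicate 2. Day 3 against day 4 gave 0 higher, but 44 with no filter, 30 with DESeq2 and 0 to 36 with 1 library left out. Members above both flanking days numbered 48, or 22 to 53 with 1 library left out. With 1 endpoint library left out, WT diff_XEN against mESC gave 21 to 36 higher and 4 to 8 lower, and KO against WT diff_XEN gave 24 to 29 higher and 10 to 17 lower. A group left with 1 library is assumed to vary like the others, fewer libraries were tested in those fits, and the cause of the other changes was not tested. No result changed direction.

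The KO replicate numbers did not pair the libraries across all days. Deviations of same-numbered libraries correlated at 0.50 between days 2 and 3, and at −0.28 to −0.13 between every other pair of days. With a replicate block the KO mid-course count was 73 higher, and day 2 against day 1, day 3 against day 1 and day 2 against day 4 gave 77, 67 and 54 higher. No paired analysis was possible for the endpoint because its columns carry no replicate number. Depth limits endpoint folds of members with few counts in a group, among them Hoxb5os, Hoxb3os, Kctd19, Dpep3, Spesp1 and Arg1.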
